A study of Drosophila melanogaster with 4 samples.

Results

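The genes described here make, organise, bind or cut chitin. They were taken by symbol: every gene whose name starts with Cht, Idgf, Cda or obst-, together with kkv, Chs2, knk, rtv, serp, verm, Gasp, mmy, Hexo1, Hexo2 and fdl, where the platform annotation ties a probe set to that gene alone. The rule found 36 of the 11982 named genes on the array, on 40 of 18769 non-control probe sets. For each gene the probe set with the highest mean intensity over the 4 arrays was used. rtv and Hexo1 were not analysed here. RNA came from Drosophila melanogaster eye discs dissected from pupae about 40 h after pupariation, raised at 29 °C. The Yki group carried GMR Gal4 crossed to UAS Yki, and the Control group carried GMR Gal4 alone, so both groups express Gal4. GMR drives Gal4 mainly in the developing eye, and UAS Yki then overexpresses Yorkie, the transcriptional coactivator held back by Hippo signalling. Each group had 2 arrays, labelled as biological replicates, and how many pupae went into a sample is not given in the labels. p-values therefore measure the spread between these samples.

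Chitin is a polymer of N-acetylglucosamine and the main fibre of insect cuticle. Cells load the sugar onto UDP, a membrane-bound synthase spins the polymer out at the apical surface, and secreted deacetylases, scaffold proteins and chitin-binding proteins shape the fibres. Chitinases and hexosaminidases cut old chitin at a moult and also remodel new chitin. In the pupa, the epidermis and trachea lay down chitin for the adult, and the corneal lens secreted over each ommatidium also contains it.

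No chitin gene passed the test over the whole array. On the log2(intensity + 16) scale the difference furthest from 0 was on the main probe set of Cht6, a chitinase-family gene, which measured 6.73-fold higher in Yki discs. That probe set was chosen through its Yki values, and the next brightest of Cht6 was lower on both Yki arrays. With a pseudocount of 1 obst-J was further from 0, at -3.18 against 2.83 for Cht6. obst-E, a chitin-binding protein that shapes the pupal case, measured 3.13-fold higher on its main probe set. Cht7, a chitinase, measured 2.56-fold higher. Cht5 and Cht10, chitinases of the moult, measured 1.85-fold and 1.68-fold lower in Yki discs. The core of the pathway, from mmy through knk, serp, verm, Gasp, obst-A and obst-B, overlapped between the groups, and kkv, the synthase itself, lay 1.59-fold higher. All these folds are on the log2(intensity + 16) scale, on which differences of dim probe sets come out smaller than on the deposited intensities.

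yki itself had intensities of 26417 and 26183 in Yki discs, against 1285 and 1261 in Control discs, so the arrays followed their labels. The arrays had been scaled by the authors to one trimmed mean, and their medians over probe sets lay at 81.1 and 100.7 in Yki discs and at 79.4 and 97.1 in Control discs. Intensity is not comparable between probe sets, and detection calls were not analysed here. Of the chitin genes, 19 had a mean of at least 1000, 8 lay lower and 9 stayed under 100 on all 4 arrays. Those 9 were Chs2, Cda9, Cht9, Cht12, Idgf5, obst-F, obst-G, obst-I and obst-J.

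**Figure D1:**
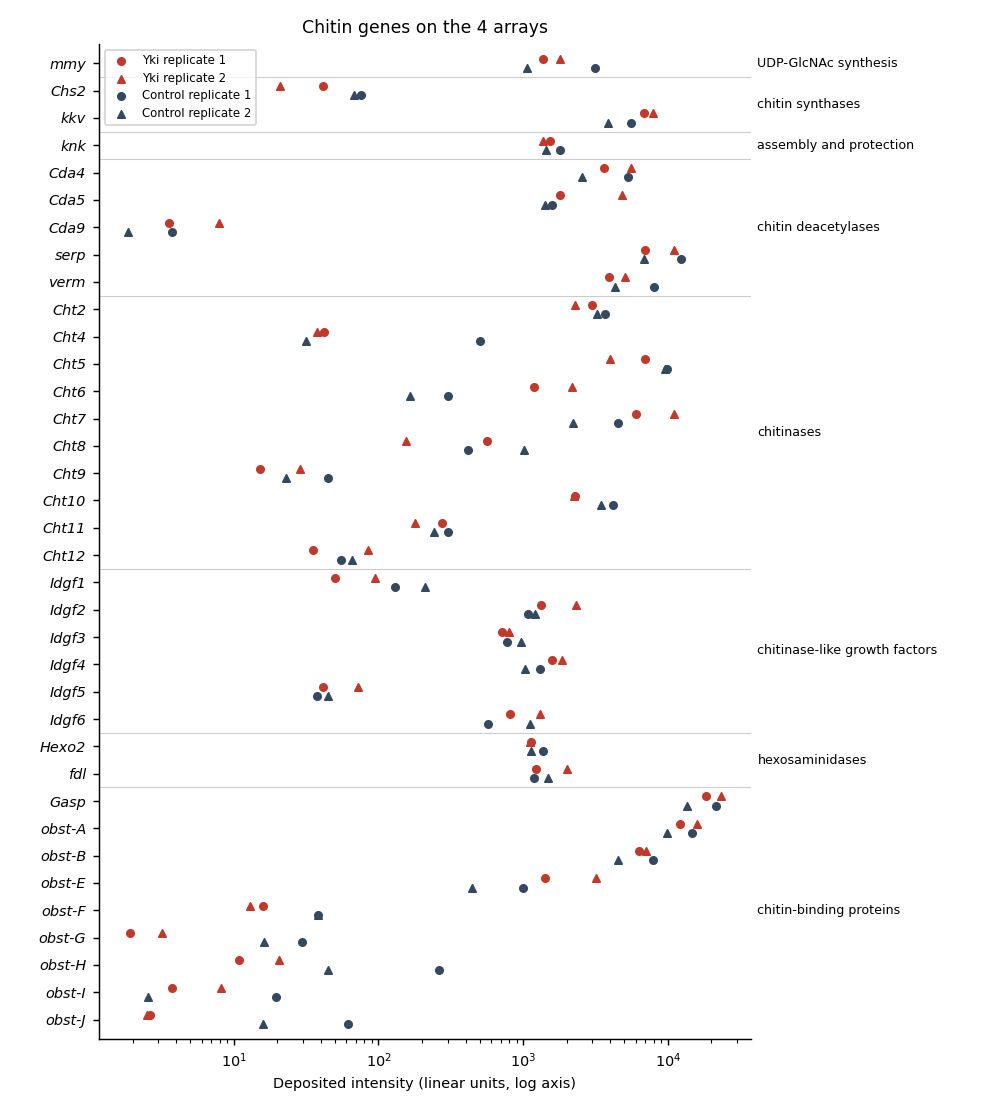
Deposited intensity of the 36 chitin genes (x axis, linear units on a log axis) on each Yki array (red) and each Control array (dark blue), with circles for replicate 1 and triangles for replicate 2, and genes grouped by role. Cht6 and obst-E have both Yki arrays to the right of both Control arrays, while serp, verm, Gasp, obst-A and obst-B have the groups interleaved.

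Of the 36 genes, 0 passed a limma adjusted p of 0.05, where 0.016% of all probe sets did (3 of 18769). At an unadjusted limma p under 0.05 there were 11, or 30.6%, where 15.3% of all named genes had one. Of these 3 were higher in Yki discs (Cht6, Cht7 and obst-E), or 8.33% of the chitin genes, where 7.19% of all named genes were. The other 8 were lower (Cht5, Cht10, Idgf1, Chs2, obst-F, obst-G, obst-H and obst-J), or 22.2% of the chitin genes, where 8.07% of all named genes were. Of those 8, Chs2, obst-F, obst-G and obst-J are among the genes that stayed under 100 on every array. The sizes of some of these differences, and both counts, depended on single arrays. Leaving out 1 array moved Cht7 between 0.84 and 1.87, obst-E between 1.07 and 2.23, Cht5 between -1.29 and -0.48, and obst-H between -3.15 and -0.96. Cht10 and obst-F moved less, between -0.88 and -0.62 and between -0.90 and -0.76. With the probe set of highest median, which changes Cht6 and obst-E, 1 gene was higher at that unadjusted limma p. Groups did not overlap for 17 genes, 47.2% of them, where 47.7% of all named genes did not overlap, so this count does not set the chitin genes apart. On the log2(intensity + 16) scale only Cht6, on its main probe set, was at least 2-fold apart in all 4 pairs of arrays. Each pair is a Yki with a Control array, and 4.01% of named genes met that size of difference. On the deposited intensities themselves, obst-F, obst-G, obst-H and obst-J were also at least 2-fold lower in all 4 pairs. So 5 chitin genes (13.9%) met that size, where 6.51% of named genes did. These 4 obst- genes had only 1.93 to 20.6 on the Yki arrays, where 24.5% and 22.2% of probe sets lay below 16. Their ratios are thus taken near the floor, without detection calls. The median log2 difference was -0.15 over the chitin genes and -0.01 over all named genes, and the chitin median was 0.06 without Control replicate 1.

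**Figure D2:**
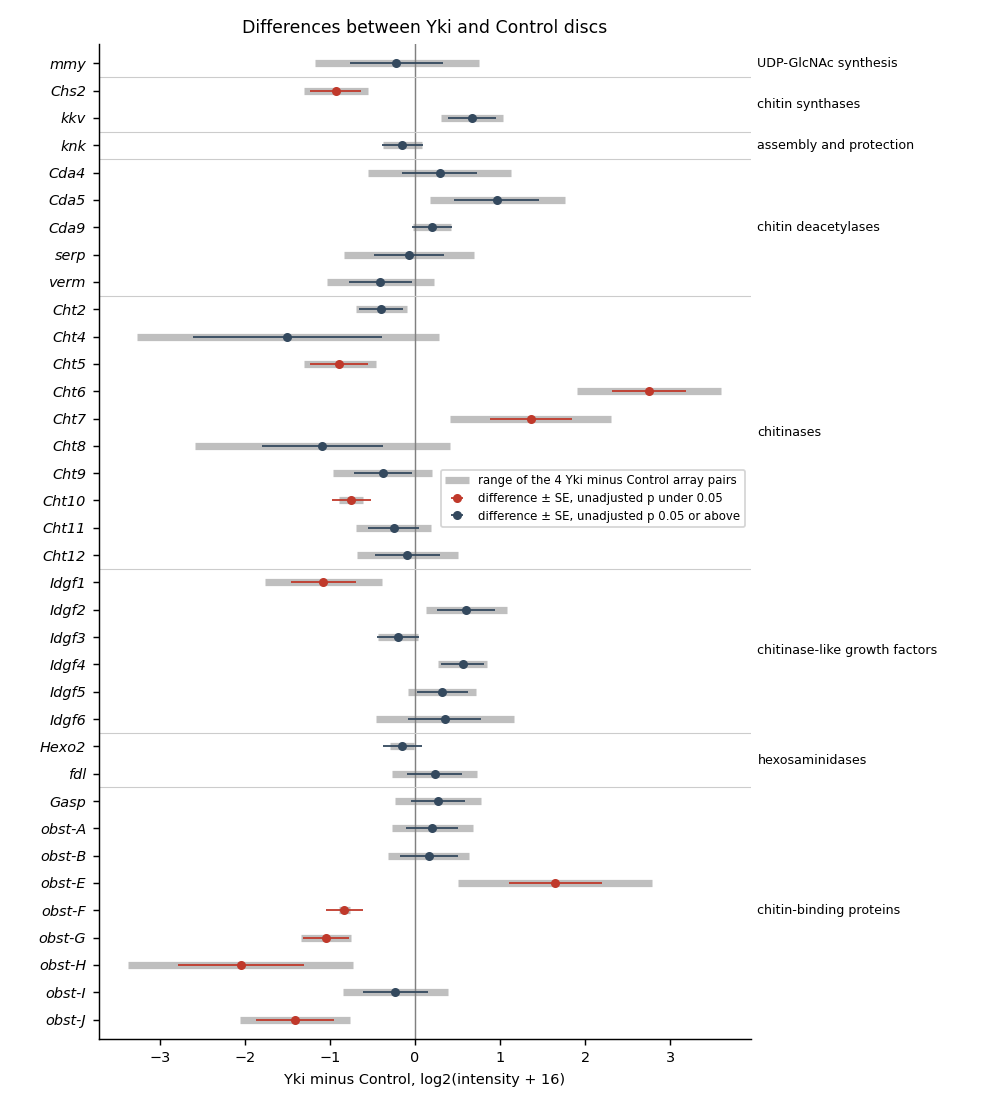
Yki minus Control difference of each chitin gene on the log2(intensity + 16) scale (x axis), with points for the fitted difference, thin bars for its SE (2 arrays per group) and wide grey bars for the range over the 4 array pairs. Red points have an unadjusted limma p under 0.05, 3 to the right of 0 and 8 to the left, and none passed after adjustment.

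The sugar donor and the synthases come first in the pathway. mmy, which makes UDP-N-acetylglucosamine, had 1364 and 1794 in Yki discs, against 3120 and 1062 in Control discs. The Control arrays lay on either side of both Yki arrays, and the log2 difference was -0.22 (SE 0.55, adjusted p 0.914). kkv, the chitin synthase of epidermis and trachea, had 6811 and 7885 in Yki discs, against 5531 and 3847 in Control discs. Both Yki arrays were above both Control arrays, but the difference of 0.67 did not pass (SE 0.28, unadjusted p 0.064, adjusted p 0.41), and was 0.41 without Control replicate 2. Chs2, the other synthase, is known for the peritrophic matrix of the gut. It measured 41.4 and 20.9 in Yki discs, against 75.5 and 67.8 in Control discs, lower on both Yki arrays (log2 difference -0.93, SE 0.30, unadjusted p 0.0266, adjusted p 0.318). So the epidermal synthase lay higher and the dim gut synthase lower in Yki discs, neither past the adjusted threshold. knk, a membrane-anchored protein that organises new chitin and protects it from chitinases, had 1529 and 1378 in Yki discs, against 1800 and 1442 in Control discs, and the groups overlapped (log2 difference -0.15, SE 0.24).

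The chitin deacetylases remove acetyl groups from the polymer. serp and verm, which lie next to each other in the RefSeq gene order, are secreted into the tracheal lumen and limit tube length. serp had 6970 and 10974 in Yki discs, against 12386 and 6806 in Control discs. verm had 3905 and 5039 in Yki discs, against 8017 and 4322 in Control discs. For both genes Control replicate 1 was the highest of the 4 arrays, and the log2 differences were -0.07 (SE 0.41) and -0.41 (SE 0.37). Without that array they were 0.36 for serp and 0.04 for verm. Cda4 had 3619 and 5569 in Yki discs, against 5321 and 2540 in Control discs, again with overlapping groups (log2 difference 0.29, SE 0.44). Cda5 had 1791 and 4807 in Yki discs, against 1594 and 1411 in Control discs. Its groups did not overlap, but the difference of 0.96 (SE 0.50, adjusted p 0.492) rested on Yki replicate 2 and was 0.25 without it. Cda9 stayed between 1.87 and 7.93 on all arrays.

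The chitinases held differences in both directions, with 2 of 10 above 0, 8 below and a median of -0.39. Cht6 on its main probe set had 1183 and 2186 in Yki discs, against 304.6 and 165.8 in Control discs. The lower Yki array was 1.90 above the higher Control array on the log2(intensity + 16) scale. The fitted difference was 2.75 (SE 0.44), with an unadjusted limma p of 0.00145 and an adjusted p of 0.145. With this probe set kept, the difference stayed between 2.31 and 3.19 with any single array left out. The probe set was chosen through its Yki values, so this range does not test that choice. Cht7, whose relative in the beetle Tribolium is needed for wing expansion, had 6062 and 10966 in Yki discs, against 4549 and 2213 in Control discs. The groups did not overlap, and the difference of 1.36 (SE 0.48, unadjusted p 0.0355, adjusted p 0.346) ranged from 0.41 to 2.30 over the array pairs. It was 0.93 without Yki replicate 2 (unadjusted p 0.163) and 0.84 without Control replicate 2 (unadjusted p 0.156).

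Cht5 and Cht10, which digest the old cuticle at a moult, went the other way from Cht6 and Cht7. Cht5 had 6972 and 3979 in Yki discs, against 9874 and 9620 in Control discs. Both Yki arrays were lower, by -0.89 on the log2 scale (SE 0.34, unadjusted p 0.0457, adjusted p 0.371), and by -0.48 without Yki replicate 2. Cht10 had 2273 and 2235 in Yki discs, against 4162 and 3467 in Control discs. Its arrays agreed closely within the Yki group, and the difference of -0.75 (SE 0.23, unadjusted p 0.0237, adjusted p 0.306) kept its size between -0.88 and -0.62 with any single array left out. Cht2, a chitinase that acts in the cuticle, had 2997 and 2289 in Yki discs, against 3702 and 3218 in Control discs, a non-overlapping but small difference of -0.40 (SE 0.26, adjusted p 0.584). Cht11 had 276.6 and 179.7 in Yki discs, against 300.8 and 241.0 in Control discs, with overlapping groups.

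Cht8, Cht12, Cht4 and Cht9 follow one another in the RefSeq gene order and did not behave alike. Cht4 had 41.7 and 37.5 in Yki discs, against 500.6 and 31.5 in Control discs. Only Control replicate 1 was high, so the difference of -1.50 (SE 1.11) was 0.23 without it. Cht8 had 559.5 and 155.3 in Yki discs, against 418.5 and 1012 in Control discs, and here Control replicate 2 was the highest array (log2 difference -1.09, SE 0.71). That difference was -1.96 without Yki replicate 1, -0.22 without Yki replicate 2, -1.71 without Control replicate 1 and -0.47 without Control replicate 2. Cht12 lay between 35.0 and 84 and Cht9 between 15.2 and 44.5 on the 4 arrays, with overlapping groups in both cases.

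3 chitin genes had more than 1 probe set on the array, and for Cht6 they disagreed. The main probe set is given above. The second by mean intensity had 624.4 and 806.1 in Yki discs, against 1062 and 889.1 in Control discs, slightly lower on both Yki arrays (log2 difference -0.45, SE 0.26, adjusted p 0.539). The last had 85.3 and 153.3 in Yki discs, against 16.6 and 20.9 in Control discs, higher by 1.92 (SE 0.32, unadjusted p 0.00195, adjusted p 0.149). Thus 2 probe sets of Cht6 were higher in Yki discs and 1 was not. The log2 ratio of the first to the second probe set within an array was 0.91 and 1.42 in Yki discs, against -1.75 and -2.32 in Control discs, a difference of 3.20. An exact two-sided permutation test of 2 against 2 arrays gave p = 0.333, the smallest that this design allows. RefSeq joins 3 older gene models in Cht6 (CG15313, CG15314 and CG2989), and which of them each probe set reads is not given in the sources used here. The rule chose the main probe set by its mean over all 4 arrays. It had 1685 ± 709.2 in Yki discs and 235.2 ± 98.2 in Control discs (SD, n = 2 each). The second had 715.2 ± 128.5 in Yki discs and 975.8 ± 122.6 in Control discs. The first thus ranked above the second only through its Yki arrays, so its higher level in Yki discs is not independent of the choice. By the highest median instead, the chosen probe sets of Cht6 and obst-E would both change.

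**Figure D3:**
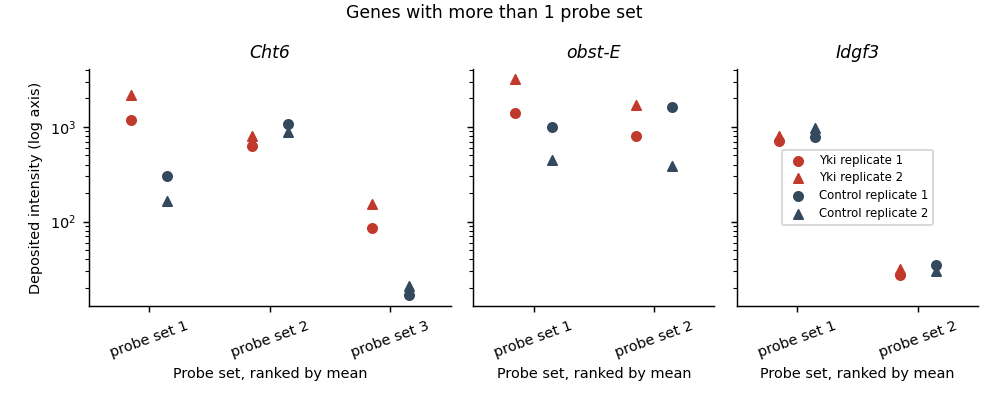
Deposited intensity (y axis, log axis) of every probe set of Cht6, obst-E and Idgf3 on the Yki arrays (red, left in each pair) and the Control arrays (dark blue, right), with circles for replicate 1 and triangles for replicate 2. Probe sets 1 and 3 of Cht6 are higher on both Yki arrays, and probe set 2 is not.

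obst-E is known to be spliced into alternative forms, and its probe sets also differed. The main one had 1416 and 3177 in Yki discs, against 992.4 and 445.9 in Control discs, with a log2 difference of 1.65 (SE 0.55, unadjusted p 0.0307, adjusted p 0.331). The groups did not overlap, and the difference was 1.07 without Yki replicate 2 and 1.08 without Control replicate 2. The other had 801.2 and 1707 in Yki discs, against 1637 and 382.0 in Control discs, where Control replicate 1 was nearly as high as the higher Yki array (log2 difference 0.55, SE 0.76). The log2 ratio of the first to the second was 0.81 and 0.89 in Yki discs, against -0.71 and 0.21 in Control discs (exact permutation p = 0.333). For Idgf3 both probe sets had overlapping groups, with log2 differences of -0.20 and -0.09.

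The Idgf genes encode secreted relatives of chitinases that have lost enzyme activity and act as growth factors for imaginal disc cells in culture. Idgf1, Idgf2 and Idgf3 are neighbours in the RefSeq gene order, and their differences were not alike. Idgf1 had 50.2 and 95.3 in Yki discs, against 130.1 and 210.3 in Control discs, lower on both Yki arrays (log2 difference -1.08, SE 0.38, unadjusted p 0.0351, adjusted p 0.345). Idgf2 had 1327 and 2310 in Yki discs, against 1085 and 1212 in Control discs, higher on both Yki arrays but not past either threshold (0.60, SE 0.34, unadjusted p 0.132), and by 0.21 without Yki replicate 2. Idgf3 had 710.9 and 801.5 in Yki discs, against 777.7 and 969.1 in Control discs, where the groups overlapped. The remaining members of the family were all above 0. Idgf4 had 1577 and 1853 in Yki discs, against 1303 and 1027 in Control discs, a difference of 0.56 with no overlap (SE 0.25, unadjusted p 0.0795, adjusted p 0.438). Idgf5 and Idgf6 had differences of 0.32 and 0.35 with overlapping groups. Idgf genes are known to be made in fat body and haemocytes as well as in discs. The 4 measured of 7 fat body markers summed to 31158 and 29346 in Yki discs, against 44128 and 31578 in Control discs, lower on both Yki arrays, although 3 of the 4 overlapped one by one. The 9 haemocyte markers summed to 4609 and 6114 in Yki discs, against 4283 and 4793 in Control discs, and these sums overlapped. Of the 9, 4 were higher and 2 lower on both Yki arrays, and 3 overlapped. Of all 11982 named genes, 2693 were higher and 3022 lower on both Yki arrays, and 6267 overlapped. The part of fat body and haemocytes in the Idgf levels was not tested.

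Among the hexosaminidases, which release single sugars from the ends of chitin or glycan chains, 2 genes were measured. Hexo2 had 1130 and 1113 in Yki discs, against 1372 and 1137 in Control discs (log2 difference -0.15, SE 0.23), and the groups did not overlap, with pairs of arrays between -0.30 and -0.01. fdl, which trims N-linked glycans in the secretory pathway, had 1231 and 1994 in Yki discs, against 1192 and 1486 in Control discs, with overlapping groups (0.23, SE 0.32).

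Of the chitin-binding proteins besides obst-E, Gasp, obst-A and obst-B overlapped between the groups. Of the 5 dimmer genes, 4 were lower on both Yki arrays than on both Control arrays, as were 3022 of all 11982 named genes. The split by level was not planned, and those 4 had 20.6 or less on the Yki arrays. Gasp, secreted into the tracheal lumen, had 18198 and 23377 in Yki discs, against 21567 and 13572 in Control discs (log2 difference 0.27, SE 0.32). obst-A, a scaffold that holds deacetylases and knk in the cuticle, had 12105 and 15859 in Yki discs, against 14628 and 9916 in Control discs (0.20, SE 0.31). obst-B had 6329 and 7015 in Yki discs, against 7931 and 4490 in Control discs (0.16, SE 0.34). In all 3 genes the Control arrays enclosed at least 1 Yki array, and Control replicate 2 was the lowest of the 4. Without that array all 3 differences were below 0, at -0.06, -0.08 and -0.25.

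Of the dim genes, obst-H had 10.8 and 20.6 in Yki discs, against 261.1 and 44.9 in Control discs. Control replicate 1 was far above the rest, and the difference of -2.05 (SE 0.74, unadjusted p 0.0383, adjusted p 0.353) was -0.96 without it. obst-J had 2.62 and 2.53 in Yki discs, against 61.1 and 15.8 in Control discs, with the same array highest (-1.41, SE 0.46, adjusted p 0.32), and -0.78 without it. obst-G had 1.93 and 3.19 in Yki discs, against 29.5 and 16.2 in Control discs (-1.05, SE 0.27, unadjusted p 0.0117, adjusted p 0.253). obst-F had 15.9 and 13 in Yki discs, against 38.2 and 38.1 in Control discs (-0.83, SE 0.22, unadjusted p 0.0134, adjusted p 0.268). These 4 genes were lower on both Yki arrays than on both Control arrays, at intensities where the pseudocount of 16 compresses the difference. obst-I had 3.77 and 8.22 in Yki discs, against 19.7 and 2.54 in Control discs, with overlapping groups.

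Much of the spread of the chitin genes lay between arrays of one group. The arrays of a group differed in a direction that many chitin genes shared, which was noticed in these values and is given as a description. Control replicate 1 was above Control replicate 2 for 28 of the 36 genes (77.8%), against 42.8% of all named genes and 54.9% of named genes with a mean of at least 1000. Yki replicate 2 was above Yki replicate 1 for 25 chitin genes (69.4%), against 50.2% of all named genes and 41.9% of those with a mean of at least 1000. All 5 deacetylases had both of these orders, as did 7 of the 9 chitin-binding proteins, and 3 of the 10 chitinases. Among them Cda9, obst-G and obst-I went down to 1.87, 1.93 and 2.54, near the floor, where the order of arrays says little. Of the 6 Idgf genes 1 had both orders. Both orders together were met by 18 of the 36 genes (50%), against 20.6% of all named genes and 24.9% of those with a mean of at least 1000. The median size of the gap between arrays of one group was 0.42 in the Yki group and 0.54 in the Control group for the chitin genes, against 0.35 in the Yki group and 0.29 in the Control group for all named genes, on the log2(intensity + 16) scale. For mmy, serp, verm, Cda4, Gasp, obst-A and obst-B this gap, between the Control arrays, was larger than the difference between the groups.

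**Figure D4:**
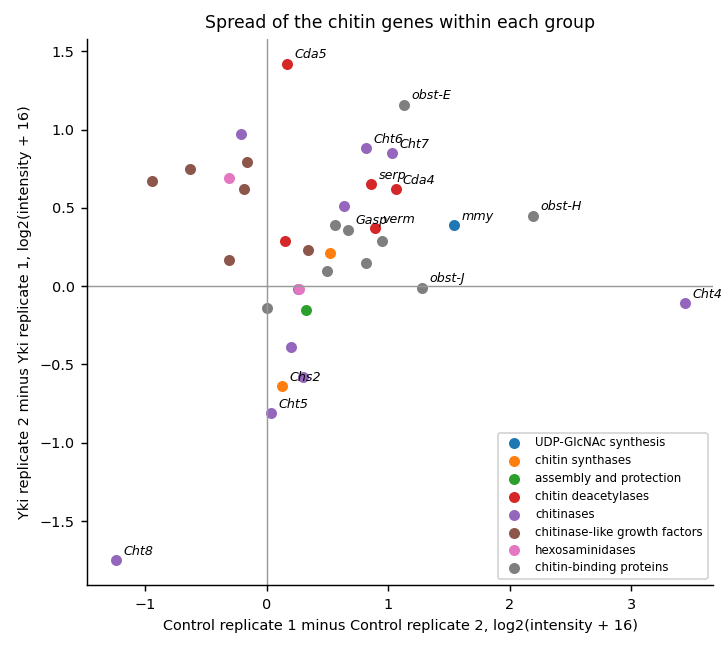
Gap between the arrays of one group for each chitin gene, with Control replicate 1 minus Control replicate 2 on the x axis and Yki replicate 2 minus Yki replicate 1 on the y axis, both on the log2(intensity + 16) scale, coloured by role. 18 of the 36 genes (50%, against 20.6% of all named genes) lie in the upper right, among them all 5 deacetylases and mmy.

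Genes that work with chitin but lie outside the rule were read from lists by role. In the hexosamine route, which makes the sugar donor, 8 of 11 listed genes were measured, 7 of them below 0, and 0 passed the adjusted threshold. Gnpnat, the acetyltransferase of that route, had 1199 and 1468 in Yki discs, against 3293 and 2162 in Control discs (log2 difference -1.0, SE 0.30, unadjusted p 0.0215, adjusted p 0.296). It was the only gene of the list with an unadjusted p under 0.05, where 15.3% of all named genes had one. Gfat1, the first enzyme of the route, had 4271 and 5155 in Yki discs, against 9040 and 4715 in Control discs, with overlapping groups (-0.48, SE 0.38). Control replicate 1 was the highest array for Gnpnat and Gfat1, as it was for mmy and many other chitin genes.

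Among 19 measured genes of chitin organisation and the apical matrix, 0 passed after adjustment, while 3 were higher and 4 lower at an unadjusted p under 0.05, where 7.19% of all named genes were higher and 8.07% lower. Mur29B, a mucin-related gene, had 62.1 and 46.2 in Yki discs, against 218.5 and 227.0 in Control discs (-1.78, SE 0.24, unadjusted p 0.00072, adjusted p 0.135). uif, an apical membrane protein of trachea and epidermis, had 1525 and 1795 in Yki discs, against 658.4 and 518.4 in Control discs (1.48, SE 0.25, unadjusted p 0.00207, adjusted p 0.149). Both were separated between the groups on every array. 5 further genes of this list are named after their values were seen. exp and reb, which are needed with kkv to deposit chitin, had overlapping groups and differences of 0.91 and 0.42. Peritrophin-15a had 11.4 and 47.1 in Yki discs, against 411.3 and 135.4 in Control discs, and Peritrophin-15b had 3.85 and 3.66 in Yki discs, against 436.5 and 31.1 in Control discs. Peritrophins are named for chitin-binding proteins of the gut lining. Peritrophin-15a and Peritrophin-15b were highest on Control replicate 1, as were many chitin genes. These included dim ones such as obst-H and obst-J and bright ones such as serp, verm and Cht5. The share of all named genes highest on that array is not given here. Peritrophin-A lay the other way, with 3698 and 9030 in Yki discs, against 2541 and 1455 in Control discs (1.58, SE 0.52, unadjusted p 0.0294, adjusted p 0.327).

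In the cuticle hardening list, 5 of 9 genes were measured and all 5 lay above 0, but 3 of them overlapped between the groups. Of all 11982 named genes, 49% lay above 0 and 6267 overlapped. The list's median was 0.05 between the arrays numbered 1 and 1.48 between those numbered 2. Ddc, which makes dopamine for tanning, had 1184 and 3003 in Yki discs, against 392.5 and 457.3 in Control discs (2.11, SE 0.48, unadjusted p 0.00675, adjusted p 0.204). y, a pigmentation gene, had 462.5 and 1052 in Yki discs, against 219.3 and 131.7 in Control discs (1.94, SE 0.48, adjusted p 0.237). For both genes Yki replicate 2 was the highest array, as it was for Cht6, Cht7, Cda5, obst-E and kkv. It was also the highest for chitin genes whose groups overlapped, such as Gasp, obst-A and Cda4. Of 13 measured regulators of cuticle timing, 1 was higher and 1 lower at an unadjusted p under 0.05, where 15.3% of all named genes had such a p, and 0 passed. br, a transcription factor that specifies the pupal stage, had 349.9 and 950.2 in Yki discs, against 3751 and 3194 in Control discs (-2.55, SE 0.50, adjusted p 0.177). Eip78C, an ecdysone-induced nuclear receptor, had 1031 and 1246 in Yki discs, against 385.1 and 618.4 in Control discs (1.19, SE 0.31, adjusted p 0.265).

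Summed marker levels of some other tissues moved with the groups, while those of others overlapped. The 6 salivary gland glue genes summed to 1747 and 390.5 in Yki discs, against 25340 and 21014 in Control discs, all 6 lower. The 8 measured of 10 muscle markers summed to 24111 and 38658 in Yki discs, against 8462 and 14245 in Control discs, all 8 higher. Summed antenna and leg markers (6 of 6 measured) lay at 2638 and 1534 in Yki discs, against 3672 and 4700 in Control discs. The 10 measured of 11 eye markers summed to 27903 and 34542 in Yki discs, against 19705 and 24215 in Control discs. Of the 10, 6 lay above 0 and 4 below, and Cpr72Ec, a lens cuticle protein, gave 17742 and 21015 of the sums in Yki discs, against 8413 and 9124 in Control discs. Without it the other 9 summed to 10161 and 13527 in Yki discs, against 11293 and 15091 in Control discs, and overlapped. The 5 measured of 7 tracheal markers, which share uif, pio and dpy with the matrix list, overlapped between the groups at 9689 and 6440 in Yki discs, against 6121 and 8399 in Control discs. Their tracheal receptor btl stayed between 13.1 and 36.6. No marker was at 0, the lowest value being 2.73 for Sgs1 in Yki replicate 2. In discs sampled in bulk, fewer cells of a type and less RNA per cell cannot be told apart, and the part of other tissues in the chitin gene differences was not tested.

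**Figure D5:**
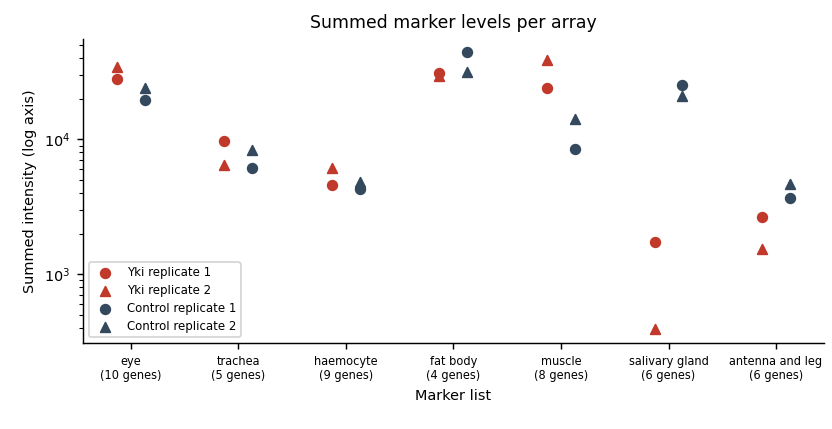
Summed deposited intensity of the measured markers of each list (y axis, log axis) on the Yki arrays (red, left in each pair) and the Control arrays (dark blue, right), with circles for replicate 1 and triangles for replicate 2. Salivary gland markers are lower and muscle markers higher on both Yki arrays, while tracheal markers overlap.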

How the data were processed

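RNA from pupal eye discs was hybridised to Affymetrix Drosophila Genome 2 arrays, 1 sample per array, per the labels' protocols. The authors deposited a linear intensity per probe set. Affymetrix Expression Console is named in the submitters' processing notes, and the summarising algorithm is not given in the sources used here. The deposited values have a 2% trimmed mean of 500.01 on every array. Of 18769 non-control probe sets (183 control probe sets left out), 13647 had 1 symbol, 402 several and 4720 none in the platform annotation. Of those with 1 symbol, 13544 matched RefSeq (Release 6 plus ISO1 MT), all 36 chitin genes among them, and 0 symbols changed. No coordinates are given. 0 sample columns were left unused.

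limma 3.58.1 in R 4.3.3 (lmFit, eBayes) was fitted to log2(intensity + 16) over all non-control probe sets, with group as the only term, 2 residual and 3.03 prior degrees of freedom, and Benjamini-Hochberg adjustment over all of them. The pipeline was tested on simulated data. Groups and replicate numbers came from the sample titles. The 4 arrays limit the precision. Alternatives were other scalings, pseudocounts, filters, moderation, probe set choices, a replicate block and leaving out each array. The members, the lists and the tests were chosen with earlier results of these data known. Values on every array are given for members at an unadjusted p under 0.05, at least 2-fold apart in all 4 pairs, or among the 5 brightest, and for others where a sentence turns on them, while each list of other genes names its 2 smallest p.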

Additional observations from a re-analysis of the deposited data

How the results depend on the processing

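The chitin genes were called 0 times in 13 of the 14 alternatives run, and 6 times with array medians subtracted (Cht6, Cht7, Cht4, obst-E, obst-H and obst-J). In that fit the moderation gave every probe set the same SE of 0.42, whatever the spread of its own arrays. The share of all probe sets called in that fit is not given here, so the 6 calls have no background to be set against. The 3 higher genes at an unadjusted p under 0.05 became 1 with a pseudocount of 1 and 1 with the probe set of highest median. The latter rule changes the probe sets of Cht6 and obst-E alone, to ones with differences of -0.45 and 0.55. The 8 lower became 5 with a pseudocount of 1, and 4 among probe sets with a mean of at least 64. Leaving out 1 array gave a median of -0.30 to 0.06. Such fits leave a lone array in 1 group, assumed to vary like the other group. In them the lower count was below 8 whichever array was left out, and the higher count went both above and below 3. The replicate block gave 3 higher, 8 lower and 0 called, and changed no call. Deviations of same-numbered arrays correlated at 0.0389, so the numbers were not taken as pairs. 14 genes changed sign when an array was left out, none of them among the 11 above. Their log2 differences ranged from -0.99 to 0.55 for mmy, -0.31 to 0.01 for knk, -0.24 to 0.82 for Cda4, -0.50 to 0.36 for serp, -0.85 to 0.04 for verm, -3.22 to 0.23 for Cht4, -0.54 to 0.04 for Cht11, -0.58 to 0.39 for Cht12, -0.12 to 0.82 for Idgf6, -0.11 to 0.58 for fdl, -0.06 to 0.60 for Gasp, -0.08 to 0.48 for obst-A, -0.25 to 0.57 for obst-B and -0.71 to 0.24 for obst-I. Cht6 was -0.45 on its second probe set, an alternative chosen after seeing the data, as was counting all 40 probe sets (4 higher, 8 lower). Beyond the changes of probe set, the causes of these shifts were not tested. The other 22 genes kept their sign with any array left out, each on the probe set chosen from all 4 arrays.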

Other observations

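A list of digestive proteases was drawn up by name after the gut-associated chitin genes had been seen, and is given as levels only. The 22 measured genes named Jonah (Jon) or alpha to lambda trypsin (Try) summed to 421.6 and 926.7 in Yki discs, against 2130 and 2661 in Control discs. Of the 22, 4 had a log2 difference above 0 and 18 below, with a median of -0.85. Of all named genes 49% were above 0, with a median of -0.01. Single values of the list ranged from 1.04 to 1313, so it reaches down to the floor of the arrays.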
